A study of Mus musculus with 6 samples.

Results

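The endothelin, nitric oxide and cyclic GMP pathways were examined in the ductus arteriosus (DA) of mouse embryos through 10 genes. The rule picks them by gene symbol and uses no measured value, and they are the endothelin ligand *Edn1*, the converting enzyme *Ece1*, the receptors *Ednra* and *Ednrb*, the endothelial nitric oxide synthase *Nos3*, the guanylate cyclase subunits *Gucy1a3* and *Gucy1b3*, the cGMP kinase *Prkg1* and the phosphodiesterases *Pde5a* and *Pde3a*. All 10 were found among the 23997 genes of the table, and all 10 passed the filter on low values that 12955 genes passed. No member differed between the groups at an adjusted p under 0.05. *Ednrb* had the largest positive difference and *Edn1* the largest negative one, and in both its size depended on which libraries were kept.

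The DA of untreated C57BL/6 embryos at E17.5 was profiled by bulk RNA-Seq, in 3 wild type libraries (WT0, WT1 and WT2) and 3 of the genotype *Prdm6f/f; SM22-Cre* (KO0, KO1 and KO2, called KO). SM22-Cre drives Cre recombinase from the promoter of *Tagln*, a gene of smooth muscle cells (SMCs), and is used to remove floxed *Prdm6* from SMCs. The promoter is also active in embryonic heart muscle, and it is not designed to act in endothelium or nerve. The labels give neither the Cre status of the WT embryos, nor the part of *Prdm6* that is floxed, nor whether a library is 1 embryo or a pool, so p-values measure only the spread between these libraries. Expression is given as FPKM, fragment numbers divided by transcript length and by the size of the library, which is a level per length and holds no read counts.

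The DA is the fetal artery that joins the pulmonary artery to the aorta and closes after birth. Endothelin-1 is secreted by endothelium as an inactive precursor, is cut to its active form by the endothelin-converting enzyme, and contracts SMCs through the receptor encoded by *Ednra*. The receptor encoded by *Ednrb* is found on several cell types. Among them are endothelium, where the receptor releases nitric oxide, and neural crest derivatives such as Schwann cell precursors and melanoblasts. Nitric oxide diffuses into SMCs and activates soluble guanylate cyclase, the cyclic GMP that it makes activates the kinase encoded by *Prkg1*, and the vessel relaxes until phosphodiesterases break cyclic GMP down. In the fetal DA this pathway helps to hold the vessel open.

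The 10 genes are protein-coding and lie on 8 chromosomes of GRCm38, the assembly called mm10, in the GENCODE vM21 annotation. *Edn1* spans chr13:42301476-42307990 on the plus strand and *Ece1* chr4:137862237-137965229 on the plus strand. *Ednra* spans chr8:77663031-77724464 and *Ednrb* chr14:103814625-103844402, both on the minus strand. *Nos3* spans chr5:24364810-24384474 on the plus strand. *Gucy1a3* and *Gucy1b3*, which the annotation lists as *Gucy1a1* and *Gucy1b1*, are neighbours on the minus strand of chromosome 3, at 82092427 to 82145789 and 82032006 to 82074689, with a gap of 17.7 kb and 0 annotated genes between them. *Prkg1* spans chr19:30564489-31765033 on the minus strand, *Pde5a* chr3:122728947-122859374 on the plus strand and *Pde3a* chr6:141249269-141507448 on the plus strand.

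The 250 bases before the transcription start of the 2 genes at the ends of the range of differences are shown, since the results turn on them. They were taken from the RefSeq promoters of GRCm38.p6, which gave a window for 8 of the 10 genes, and are written 5′ to 3′ on the strand of the gene, in lower case throughout because no searched motif lies in either. The *Edn1* window is chr13:42301226-42301475 on the plus strand, with a GC content of 50.4%. The *Ednrb* window is chr14:103843702-103843951 on the minus strand, with a GC content of 56.8%. It lies inside the annotated span of *Ednrb*, outside its annotated exons, and just upstream of the start that RefSeq gives.
Edn1: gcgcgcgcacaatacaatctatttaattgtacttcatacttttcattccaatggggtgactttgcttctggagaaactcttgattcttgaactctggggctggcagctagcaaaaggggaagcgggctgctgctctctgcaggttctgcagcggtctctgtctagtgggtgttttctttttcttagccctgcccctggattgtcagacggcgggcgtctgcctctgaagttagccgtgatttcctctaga
Ednrb: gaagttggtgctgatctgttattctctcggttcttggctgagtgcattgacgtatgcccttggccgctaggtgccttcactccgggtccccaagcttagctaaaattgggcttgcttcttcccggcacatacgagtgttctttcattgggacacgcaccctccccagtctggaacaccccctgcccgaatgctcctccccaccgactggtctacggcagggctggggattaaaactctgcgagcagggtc

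Both windows were searched on both strands for 5 motifs, of which the CArG box can hold the TATA motif and the others do not contain one another. The CArG box, bound by serum response factor in smooth muscle genes, was present in 1.47% of 32841 promoter windows of the same length. The GATA core AGATAA was present in 9.99%, and the AP-1 motif TGANTCA in 6.75%. The SOX core ACAAAG was present in 16.5% and the TATA motif TATAAA in 12.4%. None of these letters occurred in the *Edn1* or *Ednrb* window. Among the windows of the 8 matched genes the single match was AGATAA in a *Prkg1* window.

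**Figure D1:**
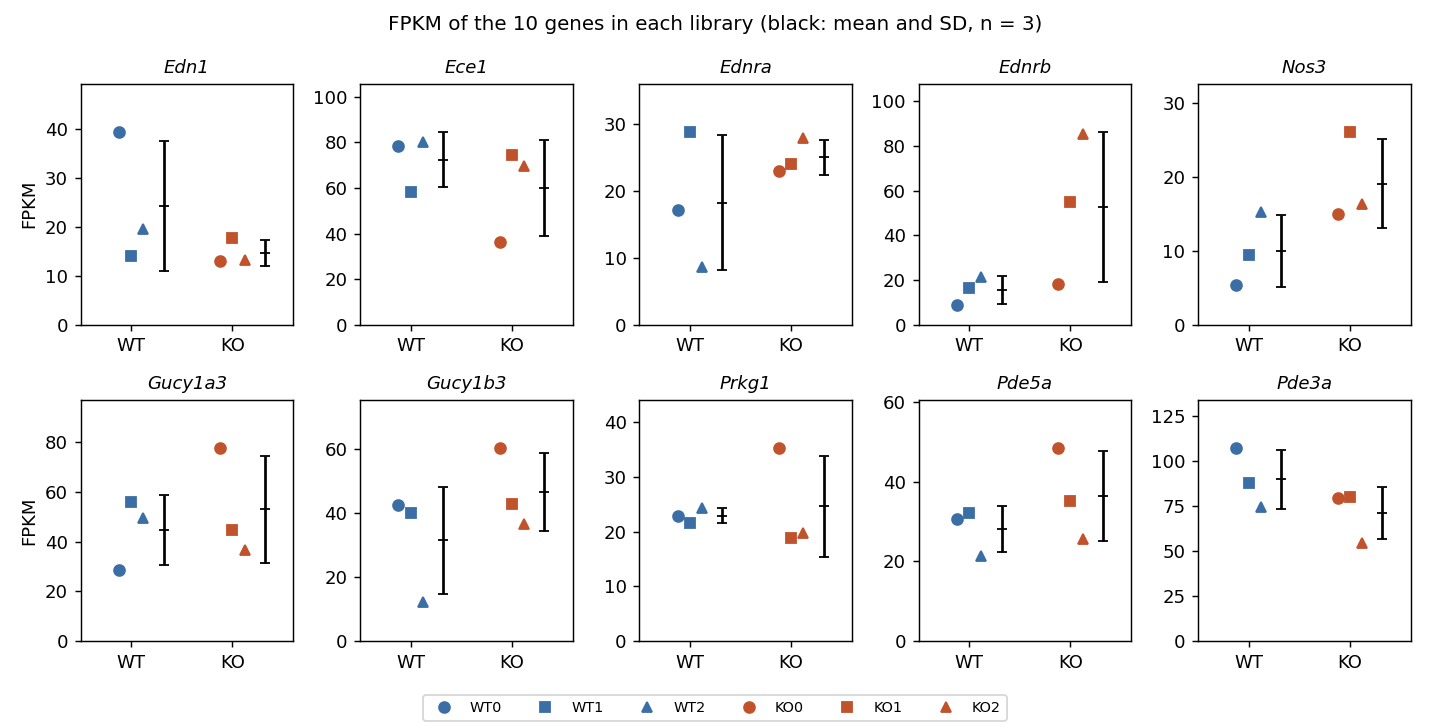
FPKM (vertical axis, linear, from 0) of each of the 10 genes in the 3 WT (blue) and 3 KO (orange) libraries, 1 panel per gene with its own scale, with circles, squares and triangles for replicates 0, 1 and 2 and black bars for the mean and SD of 3 libraries. *Ednrb* reached 54.9 and 85.4 in KO1 and KO2 while KO0, at 18.2, lay among the WT libraries, and in all 10 panels the groups overlap.

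In level, the 10 genes were well expressed in the DA, each above at least 62.8% of the genes tested. Over the 6 libraries *Pde3a* was the most abundant by mean FPKM at 80.5 ± 17.1 (SD, n = 6), followed by *Ece1* at 66.2 ± 16.7, *Gucy1a3* at 48.9 ± 16.9 and *Gucy1b3* at 39.1 ± 15.4. Below them came *Ednrb* at 34.2 ± 29.7, *Pde5a* at 32.2 ± 9.26, *Prkg1* at 23.8 ± 5.93, *Ednra* at 21.6 ± 7.58, *Edn1* at 19.5 ± 10.1 and *Nos3* at 14.6 ± 7.01. None of the 9 pairs of neighbours in this order differed beyond the spread between libraries by an exact sign-flip permutation test on log2 differences over the 6 libraries, with a smallest raw p of 0.0625 for *Pde5a* over *Prkg1* and adjusted p-values of 0.562 to 0.75 over the 9 pairs. On that log2 scale *Ednrb* minus *Pde5a* averaged −0.29, and *Ednrb* was the higher in 2 of the 6 libraries, KO1 and KO2. *Prkg1* varied least, with a highest value 1.86 times its lowest, and *Ednrb* most, with a highest value 9.47 times its lowest. *Pde3a* ranked first among the 10 genes in 4 of the 6 libraries. *Ednrb* held ranks 9, 8 and 6 in WT0, WT1 and WT2 and ranks 8, 3 and 1 in KO0, KO1 and KO2. *Edn1* held rank 10, the last, in all 3 KO libraries, against ranks 4, 9 and 7 in WT.

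The libraries differed in cell content and in one check of their labels. *Prdm6* FPKM was 41.7, 48.4 and 19.8 in WT and 48.6, 27.1 and 15.4 in KO, a log2 difference of −0.32 (SE 0.48, limma adjusted p = 0.833), so the level of the targeted gene did not separate the groups. Since the floxed exons are not named, this level over the whole gene checks nothing about the labels. The library labelled KO0 held both *Xist* (81 FPKM) and the Y-linked *Ddx3y* (26.4), and the other 5 libraries held 1 of the pair at 20.1 FPKM or more and the other at 0.383 or less. Summed heart muscle markers were 1740 FPKM in WT1 and 2010 in KO2, against 71.2 to 641 in the other 4. From the steps between low FPKM values the depth was estimated at 0.93 to 1.19 times that of WT1, and the total depth is unknown. The estimate for WT2, 0.93, used only 126 genes. Of all 23997 genes, 11886 were listed at 0 in WT2, the most, and 8338 in KO2, the fewest. Of the 3506 genes that averaged 20 FPKM or more, 61 were listed at 0 in WT2 and 34 in KO2, again the most and the fewest. None of the 10 genes was listed at 0 in any library.

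Markers of the smooth muscle and endothelium of an arterial wall were present. The 12 smooth muscle markers summed to 2570 to 5900 FPKM in WT and 968 to 2470 in KO, and all 12 were lower in KO, 6 of them at an unadjusted p under 0.05 and without overlap between the groups, as against 4.97% and 7.84% of all genes tested. The 12 endothelial markers summed to 426 to 608 FPKM in WT and 520 to 790 in KO, with 8 higher and 4 lower. Schwann cell markers summed to 20.3 to 49.6 FPKM in WT and 53.1 to 200 in KO and neuronal markers to 9.2 to 27.1 and 42.2 to 69.2. By the mean log2 level of each list, smooth muscle was lower by 1.22 and Schwann cells and neurons were higher by 2.15 and 2.17, each with an exact permutation p of 0.1, the smallest that 3 libraries against 3 allow, and an adjusted p of 0.3 over 9 lists. In tissue of mixed cells, fewer cells of a type and less RNA per cell cannot be told apart.

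The comparison of KO with WT asked whether the genes of these pathways changed when *Prdm6* was targeted in SMCs. It used limma on log2(FPKM + 0.1), on which scale all fold changes are given. This scale understates the change of low genes, but a library listed at 0 can enlarge it. Of the 10 genes, 7 were higher and 3 lower in KO, with a median log2 fold change of 0.29 against 0.07 over all genes tested. By limma, 0 of the 10 had an adjusted p under 0.05, as against 0.00772% of all genes tested (1 gene, the ribosomal RNA gene *Rn45s*). *Rn45s* was higher in KO, with a log2 fold change of 15.19, or 11.87 with 1 and 18.52 with 0.01 added to FPKM. Whether library preparation or processing differed along with the groups was not tested. An unadjusted p under 0.05 was reached by 2 of the 10, as against 8.28% of all genes, and both were higher in KO, where 3.31% of all genes were. The groups did not overlap in 0 of the 10, as against 16.1% of all genes. The exact permutation p of the 10 genes ranged from 0.2 to 1.

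**Figure D2:**
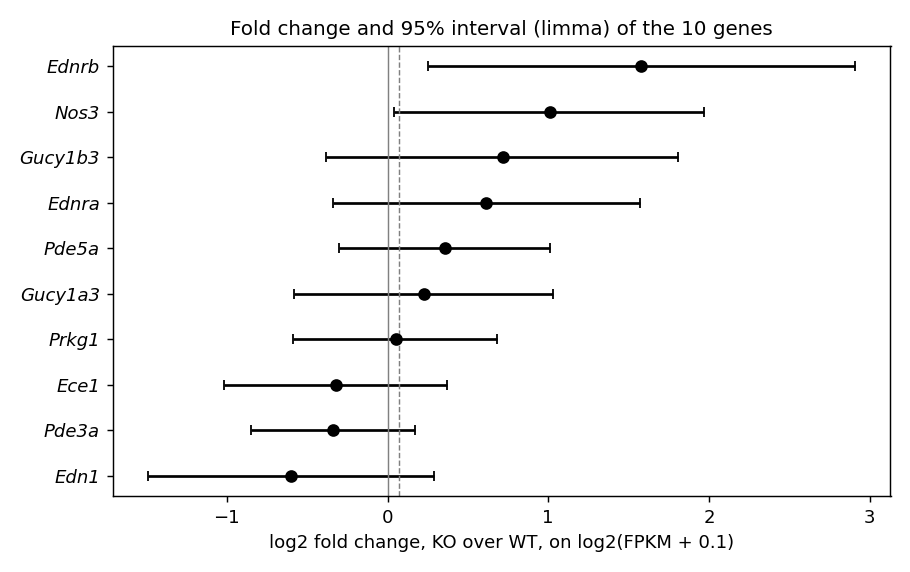
Log2 fold change of KO over WT (horizontal axis, on the log2(FPKM + 0.1) scale) of the 10 genes, with points for the limma estimate, bars for its 95% interval (3 libraries a group), a solid line at 0 and a dashed line at the median of all genes tested, 0.07. The intervals of *Ednrb* (0.25 to 2.91) and *Nos3* (0.04 to 1.97) lie above 0 before adjustment over all genes, and those of the other 8 include 0.

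The ligand and its converting enzyme came to lower means in KO, without a difference beyond the spread. *Edn1*, which encodes endothelin-1, was at 39.5, 14.0 and 19.6 FPKM in WT0, WT1 and WT2 and at 13.1, 17.7 and 13.2 in KO0, KO1 and KO2. WT0 stood above the rest, while the other 2 WT libraries lay within or just above the KO range, and the KO libraries were close to each other. The mean was 24.3 ± 13.4 in WT and 14.7 ± 2.62 in KO (SD, n = 3), a log2 fold change of −0.60 (SE 0.38, 95% interval −1.49 to 0.29, limma adjusted p = 0.684). Without WT0 it was −0.19, and without WT1 it was −0.93, which passed 0.05 in limma before adjustment.

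*Ece1*, whose product cuts the precursor of endothelin-1, was at 78.6, 58.4 and 80.1 FPKM in WT and at 36.1, 74.4 and 69.6 in KO. The low mean of KO came from KO0, and KO1 and KO2 lay between the lowest and the highest WT library. The mean was 72.4 ± 12.2 in WT and 60.0 ± 20.9 in KO, a log2 fold change of −0.32 (SE 0.30, limma adjusted p = 0.744) that became 0.01 without KO0.

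The endothelin receptors had different patterns. *Ednra*, the receptor of SMCs through which endothelin-1 contracts the vessel, was at 17.1, 28.8 and 8.65 FPKM in WT and at 23.0, 24.0 and 27.9 in KO. All 3 KO libraries lay within the wide WT range, so that the difference came from the low WT2. The mean was 18.2 ± 10.1 in WT and 25.0 ± 2.6 in KO, with a log2 fold change of 0.61 (SE 0.41, 95% interval −0.34 to 1.57, limma adjusted p = 0.687). Without WT2 it was 0.16, and without WT1 it was 1.03, which passed 0.05 in limma before adjustment.

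*Ednrb*, a receptor of endothelium and neural crest derivatives among other cells, was at 9.02, 16.5 and 21.2 FPKM in WT and at 18.2, 54.9 and 85.4 in KO. KO1 and KO2 were each above every WT library, and KO0 lay between WT1 and WT2. The mean was 15.6 ± 6.15 in WT and 52.8 ± 33.6 in KO. The fitted difference was 2.99-fold (95% interval 1.19 to 7.51), a log2 fold change of 1.58 (SE 0.57, limma adjusted p = 0.567), and 91.5% of the genes tested had a lower one. Before adjustment the difference passed 0.05 with all 6 libraries and without KO0 (2.22), WT1 (1.66) or WT2 (1.84), but not without KO2 (1.10), KO1 (1.42) or WT0 (1.23). Without WT1 and KO2, the libraries high in heart muscle markers, it was 1.19 and did not pass either. With all 6 libraries kept but limma fitted without its mean-variance trend, the difference stayed at 1.58 and did not pass. The exact permutation p of *Ednrb* was 0.2.

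Within each library the ratio of *Ednrb* to *Ednra* was 0.526, 0.573 and 2.45 in WT and 0.79, 2.28 and 3.05 in KO. *Ednrb* was thus the more abundant receptor per length in WT2, KO1 and KO2, and *Ednra* in WT0, WT1 and KO0. The groups overlapped, and the log2 ratio was 0.96 higher in KO (exact permutation p = 0.3, adjusted p = 0.325 over the 13 ratios and relative levels computed). That difference was 0.57 without KO2, 0.58 without WT0, 0.64 without WT1, 1.54 without KO0 and 1.68 without WT2, and 0.24 without both WT1 and KO2.

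The endothelial and neuronal markers were highest in KO1 and KO2, as was *Ednrb*. *Ednrb* also moved with the Schwann cell markers across the 6 libraries. The summed level of the 10 markers was 20.3, 30 and 49.6 FPKM in WT and 53.1, 128 and 200 in KO, and 9 of the 10 were higher in KO, 5 of them at an unadjusted p under 0.05 and 4 without overlap between the groups, as against 3.31% and 8.21% of all genes tested. *S100b* was the 1 marker with a lower mean in KO. On the log2 scale *Ednrb* minus the mean of the list was 2.95, 3.12 and 3.47 in WT and 2.58, 2.79 and 2.46 in KO. Relative to the Schwann cell list *Ednrb* was therefore lower in KO, by 0.57, without overlap (exact permutation p = 0.1, adjusted p = 0.13), as were 59.1% of all genes tested. This scale was chosen after the data were seen. The summed neuronal markers were also higher in every KO library, at 14.6, 9.2 and 27.1 FPKM in WT and 42.2, 56.1 and 69.2 in KO. The mean log2 level of the endothelial list was 4.79, 4.84 and 5.21 in WT and 4.85, 5.53 and 5.53 in KO. By that level the libraries stood in nearly the same order as by *Ednrb*. The parts of Schwann cells, of neurons and of endothelium in the *Ednrb* difference were not tested further.

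**Figure D3:**
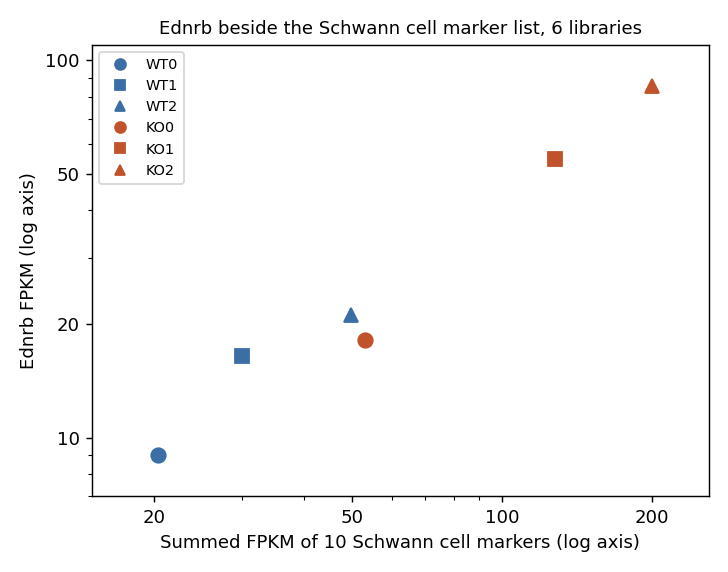
*Ednrb* FPKM (vertical log axis) against the summed FPKM of 10 Schwann cell markers (horizontal log axis), 1 point per library, WT blue and KO orange, with circles, squares and triangles for replicates 0, 1 and 2. WT0 is lowest on both axes at 9.02 and 20.3 and KO2 highest at 85.4 and 200, and KO0 lies beside WT2.

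The genes whose pattern was most like that of *Ednrb*, by the root mean square difference of log2 deviations from the mean of each gene over the 6 libraries, were *Kcna6* (0.239), *Kif21a* (0.321), *Nrp2* (0.381), *Ccnd1* (0.392) and *Ngfr* (0.392), out of 9121 tested genes that averaged 5 FPKM or more. *Kcna6* encodes a potassium channel, *Nrp2* a receptor for semaphorins, and *Ngfr*, a neurotrophin receptor, is also 1 of the 10 Schwann cell markers. *Nrp2*, for example, was at 8.0, 14.9 and 19.7 FPKM in WT and at 15.5, 28.5 and 43.0 in KO. For *Edn1* the nearest were *Pagr1a* (0.192), *Snx12* (0.203), *Ccdc15* (0.218), *Athl1* (0.229) and *Nucb2* (0.231), all of them highest in WT0. Being near in 6 values from the same libraries is a description of those libraries.

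*Nos3*, the nitric oxide synthase of endothelium, had the second largest positive difference. It was at 5.42, 9.41 and 15.2 FPKM in WT and at 15, 26.1 and 16.3 in KO. The groups overlapped only through KO0, which lay just below WT2, and KO1 was the highest of all. The mean was 10 ± 4.9 in WT and 19.1 ± 6.02 in KO. The fitted difference was 2.01-fold (95% interval 1.03 to 3.93), a log2 fold change of 1.01 (SE 0.42, limma adjusted p = 0.591). Before adjustment it passed 0.05 with all 6 libraries, but with 1 library left out it passed only without WT2 (1.37). It did not pass without WT0 (0.63), WT1 (1.02), KO0 (1.16), KO1 (0.76) or KO2 (1.10), nor without WT1 and KO2 together (1.12). With all 6 libraries kept but limma fitted without its mean-variance trend, the difference stayed at 1.01 and did not pass. The exact permutation p of *Nos3* was 0.2.

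Against the endothelial markers, *Nos3* did not separate the groups and 3 other genes did. *Nos3* minus the mean of the list, on the log2 scale, was −2.32, −1.59 and −1.28 in WT and −0.93, −0.82 and −1.50 in KO, a difference of 0.65 (exact permutation p = 0.2, adjusted p = 0.236) that was 0.35 without WT0. The endothelial list was itself higher in KO, by 0.36 (exact permutation p = 0.2), with all 12 of its markers above 0 in every library. *Edn1* was 0.52, −1.02 and −0.91 in WT and −1.13, −1.38 and −1.80 in KO, a difference of −0.96 that was −0.47 without WT0. *Ece1* was 1.51, 1.03 and 1.12 in WT and 0.33, 0.69 and 0.59 in KO, a difference of −0.69. For *Edn1* and *Ece1* the groups did not overlap, with KO lower (exact permutation p = 0.1, adjusted p = 0.13), which 14.2% of all genes tested also showed. *Ednrb* was −1.60, −0.79 and −0.80 in WT and −0.66, 0.25 and 0.88 in KO, a difference of 1.22 without overlap (exact permutation p = 0.1, adjusted p = 0.13), with KO higher, as in 1.63% of all genes. This difference of *Ednrb* was 0.86 without KO2, 0.95 without WT0 and 1.63 without KO0. The gap between the groups was small for *Edn1* (WT1 over KO0) and for *Ednrb* (KO0 over WT1). In FPKM, *Ednrb* and *Nos3* were both highest in KO1 and KO2, the libraries highest in Schwann cell, neuronal and endothelial markers. The part of these cells was not tested.

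On the SMC side of the nitric oxide pathway no gene differed beyond the spread between libraries, and the intervals were wide. *Gucy1a3*, the alpha subunit of soluble guanylate cyclase, was at 28.8, 55.9 and 49.5 FPKM in WT and at 77.5, 44.9 and 36.7 in KO. KO0 was the highest library and WT0 the lowest, and the others were mixed. The mean was 44.7 ± 14.2 in WT and 53.0 ± 21.6 in KO, with a log2 fold change of 0.23 (SE 0.35, 95% interval −0.58 to 1.03, limma adjusted p = 0.84) that was −0.06 without WT0, −0.08 without KO0, 0.41 without WT1 and 0.45 without KO2.

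*Gucy1b3*, the beta subunit of the same enzyme, was at 42.4, 40.0 and 12.3 FPKM in WT and at 60.2, 42.7 and 36.6 in KO. WT2 alone was low, and the other 2 WT libraries lay within the KO range. The mean was 31.6 ± 16.7 in WT and 46.5 ± 12.2 in KO, a log2 fold change of 0.72 (SE 0.47, 95% interval −0.38 to 1.81, limma adjusted p = 0.687) that was 0.14 without WT2 and 1.03 without WT0. The ratio of *Gucy1a3* to *Gucy1b3* was 0.679, 1.40 and 4.01 in WT and 1.29, 1.05 and 1 in KO. The 3 KO libraries and WT1 lay between 1 and 1.40, WT0 below them and WT2 far above. The mean log2 ratio differed by −0.49 (exact permutation p = 0.7), which became 0.18 without WT2 and −1.09 without WT0.

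*Prkg1*, the kinase that cyclic GMP activates, was at 22.8, 21.6 and 24.3 FPKM in WT and at 35.2, 18.9 and 19.8 in KO. KO0 was above and KO1 and KO2 were below all 3 WT libraries. The log2 fold change was 0.05 (SE 0.27, 95% interval −0.59 to 0.68, limma adjusted p = 0.966) and became −0.24 without KO0.

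*Pde5a*, the phosphodiesterase specific for cyclic GMP, was at 30.5, 32 and 21.4 FPKM in WT and at 48.3, 35.2 and 25.7 in KO. KO0 and KO1 were above all WT libraries and KO2 was between them. The mean was 28.0 ± 5.75 in WT and 36.4 ± 11.3 in KO, with a log2 fold change of 0.36 (SE 0.28, 95% interval −0.30 to 1.01, limma adjusted p = 0.721) that was 0.13 without KO0, 0.17 without WT2 and 0.58 without KO2. *Pde3a*, a phosphodiesterase of cyclic AMP that cyclic GMP inhibits, was at 107, 87.9 and 74.7 FPKM in WT and at 79.4, 79.8 and 54.6 in KO. KO2 was the lowest library and WT0 the highest, and the other KO libraries lay within the WT range. The mean was 89.8 ± 16.2 in WT and 71.3 ± 14.4 in KO, a log2 fold change of −0.34 (SE 0.22, 95% interval −0.85 to 0.17, limma adjusted p = 0.687) that was −0.16 without KO2 and −0.21 without WT0.

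Relative to the smooth muscle markers, the 6 genes of the SMC side were higher in KO in every KO library than in every WT library. The difference on the log2 scale was 1.83 for *Ednra*, 1.44 for *Gucy1a3*, 1.94 for *Gucy1b3*, 1.26 for *Prkg1*, 1.57 for *Pde5a* and 0.88 for *Pde3a* (each exact permutation p = 0.1, adjusted p = 0.13). Without WT0 the difference of *Gucy1a3* was 0.87. *Pde3a* had the smallest difference and also the narrowest groups, at −0.74, −0.30 and −0.28 in WT and 0.40, 0.43 and 0.48 in KO. Of all genes tested, 57.0% did not overlap in this direction on the same scale, since the marker list itself was lower in KO by 1.22, so 6 of 6 is read against that share. *Myh11*, the smooth muscle myosin heavy chain and 1 of the markers, was at 749, 284 and 308 FPKM in WT and at 148, 157 and 65.6 in KO.

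**Figure D4:**
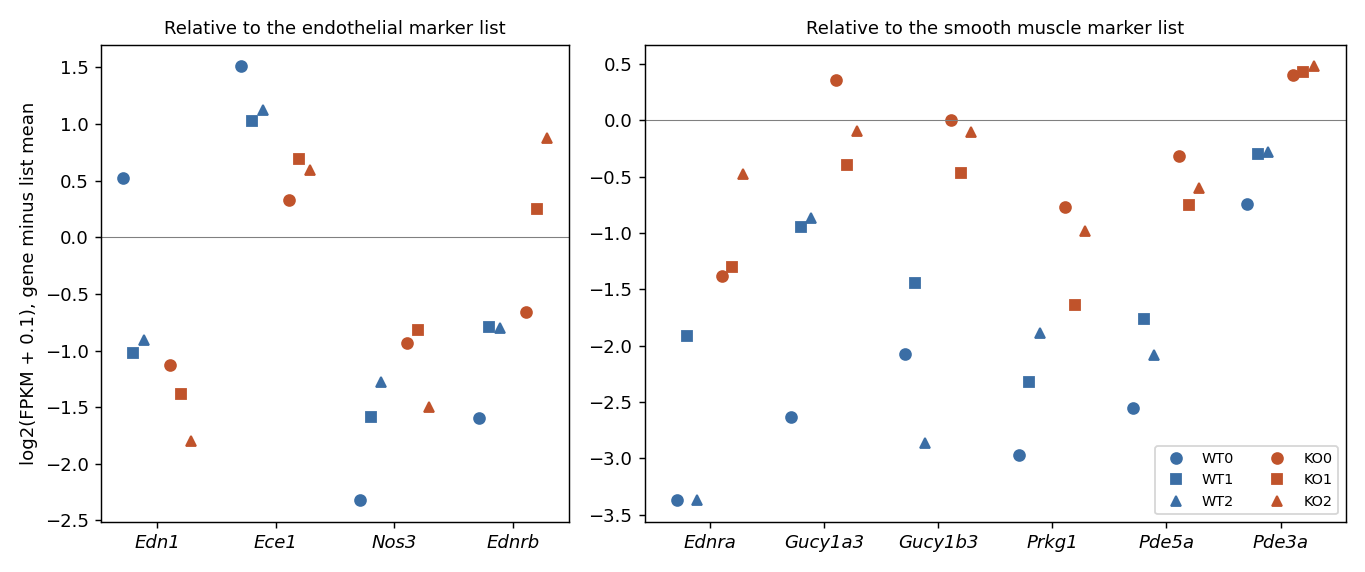
Level of 4 genes relative to the endothelial marker list (left) and of 6 genes relative to the smooth muscle marker list (right), as log2(FPKM + 0.1) of the gene minus the mean over 12 markers in the same library (vertical axis), with WT blue, KO orange, and circles, squares and triangles for replicates 0, 1 and 2. On the right the KO libraries lie above the WT libraries for all 6 genes, as they do for 57.0% of all genes tested, and on the left *Edn1* and *Ece1* lie lower and *Ednrb* higher in KO while *Nos3* overlaps.

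Around the 10 genes, 43 other genes of the pathways were taken as 5 lists, of which 31 passed the filter on low values. By limma, 0 of the 31 had an adjusted p under 0.05, 3 were higher and 0 lower at an unadjusted p under 0.05 (3.31% and 4.97% of all genes tested), and the median log2 fold change was 0.12. The groups did not overlap for 4 genes with KO higher and 2 with KO lower, as against 8.21% and 7.84%.

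Of the endothelin family, *Edn2* and *Edn3*, the other ligands, were listed at 0 in 5 and 3 of the 6 libraries and did not exceed 1.29 FPKM, so *Edn1* was the abundant ligand in this tissue. *Ece2*, the other converting enzyme, was at 6.77, 6.08 and 0 FPKM in WT and at 5.38, 3.80 and 3.73 in KO. It was the 1 gene of the 3 that was tested, and its log2 fold change of 1.42 (SE 1.55) includes the library listed at 0.

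Of 8 genes that bear on the supply of nitric oxide, 5 were tested, 2 higher and 3 lower. *Ddah1*, which breaks down the methylated arginines that inhibit nitric oxide synthases, was at 19.6, 14.5 and 8.12 FPKM in WT and at 27.0, 23.7 and 23.4 in KO. Every KO library was above every WT library, with a log2 fold change of 0.90 (SE 0.33, limma adjusted p = 0.574). *Nosip*, which binds endothelial nitric oxide synthase, was at 11.7, 12.3 and 19.9 FPKM in WT and at 9.87, 9.48 and 8.01 in KO, lower in KO without overlap (log2 fold change −0.64, SE 0.30, limma adjusted p = 0.611). *Cav1*, the caveolar protein that holds the synthase inactive, was the most abundant of the list, at 236 to 276 FPKM in WT and 204 to 261 in KO (log2 fold change −0.07, SE 0.17). The other nitric oxide synthases, *Nos1* and *Nos2*, were below the filter, with highest values of 0.671 and 1.61 FPKM.

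Of 8 other guanylate cyclases and genes of the natriuretic peptide system, 4 were tested, 3 higher and 1 lower. *Gucy1a2*, the alternative alpha subunit of soluble guanylate cyclase, was at 2.91, 2.59 and 0.407 FPKM in WT and at 6.84, 2.99 and 4.50 in KO, higher without overlap but far below *Gucy1a3* (log2 fold change 1.53, SE 0.83, limma adjusted p = 0.649). The most abundant was *Npr1*, the natriuretic peptide receptor that is itself a guanylate cyclase, at 15.5, 15.9 and 20.5 FPKM in WT and at 26.0, 26.2 and 20.2 in KO (log2 fold change 0.48, SE 0.22, limma adjusted p = 0.611). The peptide genes *Nppa*, *Nppb* and *Nppc* did not exceed 0.873 FPKM in any library, and *Nppb* was listed at 0 in all 6.

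Of 8 cGMP kinases and substrates, 7 were tested, 2 higher and 5 lower, with a median log2 fold change of −0.51, and in 0 of the 7 was the unadjusted limma p under 0.05 or the overlap of the groups absent. *Ppp1r12a*, the targeting subunit of myosin phosphatase, was the most abundant, at 258, 171 and 210 FPKM in WT and at 184, 149 and 118 in KO (log2 fold change −0.51, SE 0.23, limma adjusted p = 0.611). Its lower values in KO stood beside those of the smooth muscle markers, whose part was not tested.

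Of 16 other phosphodiesterases, 14 were tested, 9 higher and 5 lower. *Pde1b*, which is activated by calcium and calmodulin, was at 1.88, 3.41 and 1.28 FPKM in WT and at 3.43, 11.4 and 6.91 in KO (log2 fold change 1.63, SE 0.63, limma adjusted p = 0.588). *Pde7b*, which is specific for cyclic AMP, was at 1.44, 3.38 and 2.71 FPKM in WT and at 6.09, 3.96 and 8.47 in KO (log2 fold change 1.28, SE 0.54, limma adjusted p = 0.6). Both passed 0.05 before adjustment, and in both the groups did not overlap, by a narrow gap for *Pde1b*. *Pde4d*, also specific for cyclic AMP, was lower without overlap, at 15.1, 8.12 and 7.73 FPKM in WT and 5.58, 4.77 and 6.41 in KO (log2 fold change −0.82, SE 0.37, limma adjusted p = 0.611). *Pde1a* was the most abundant of the list, at 82.1, 50.5 and 40.5 FPKM in WT and at 57.4, 43.4 and 25.4 in KO (log2 fold change −0.47, SE 0.36), and stayed below *Pde3a* in each library.

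**Figure D5:**
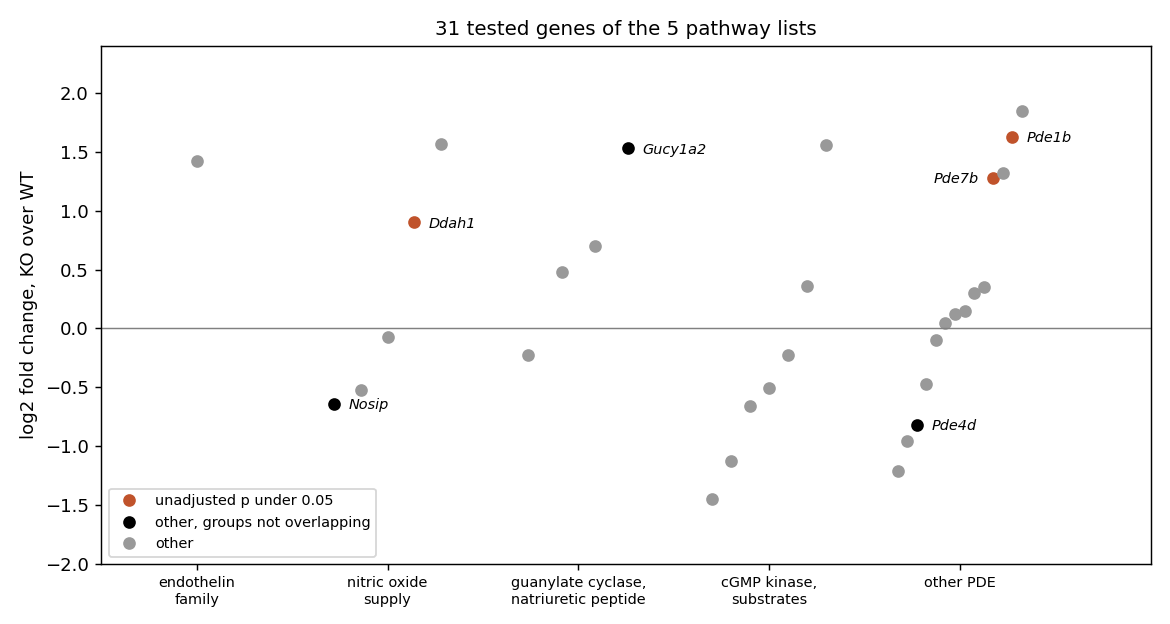
Log2 fold change of KO over WT (vertical axis, on the log2(FPKM + 0.1) scale) of the 31 tested genes of 5 pathway lists, sorted by value within a list (horizontal axis), with orange points for an unadjusted limma p under 0.05, black points for the other genes whose groups did not overlap, and grey points for the rest. The 3 orange genes, *Ddah1*, *Pde7b* and *Pde1b*, are higher in KO by 0.90, 1.28 and 1.63, and no point passed adjustment over all genes tested.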

How the data were processed

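RNA from E17.5 DA was made into standard Illumina libraries, 3 WT and 3 KO. The authors trimmed reads at a base quality of 30 and a length of 45, aligned them to mm10 with TopHat2 and deposited 1 FPKM per gene and library, made with Cufflinks. Versions, annotation and scaling are not given in the sources used here. Columns were matched to samples by title, with 0 left over. FPKM hold no counts, so no count test, interval or floor was computed, and the study's Cuffdiff test, which needs aligned reads, was not repeated.

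Genes that averaged 1 FPKM or more across the 6 libraries were compared on log2(FPKM + 0.1) with limma 3.58.1 in R 4.3.3 (lmFit, eBayes with trend, two-sided, Benjamini-Hochberg over 12955 genes, threshold 0.05), which was checked on simulated data. Ratios and levels relative to marker lists were compared with two-sided exact permutation tests, which cannot give a p under 0.1. Marker lists were smooth muscle, endothelium, heart muscle, Schwann cells, neurons, erythroid cells (summed FPKM 3860 to 7580 in WT and 4280 to 24400 in KO), leukocytes (32.6 to 125 and 25.2 to 96.6), fibroblasts (2240 to 3950 and 1790 to 3610) and epithelium (15.5 to 52.8 and 18.3 to 34.2). Named genes were the members and, of each pathway list, those with an unadjusted p under 0.05 or groups not overlapping and the most abundant. Also named were the 5 genes with patterns nearest to the highest and to the lowest member by fold change, and a few genes chosen after their values were seen. Members and lists were chosen with earlier results of these data known. Alternatives covered pseudocount, filter, scaling, variance model, replicate block and the omission of libraries. Gene positions are from GENCODE vM21. Replicate numbers are not described as pairs.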

Additional observations from a re-analysis of the deposited data

How the results depend on the processing

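Over 16 other settings, 160 values of the 10 members were recomputed, 0 passed the adjusted threshold and 4 changed direction. *Gucy1a3* came to −0.06 without WT replicate 0 and −0.08 without KO replicate 0, and without KO replicate 0 *Ece1* came to 0.01 and *Prkg1* to −0.24. With 1 library left out *Gucy1a3* ranged from −0.08 to 0.45, *Ece1* from −0.51 to 0.01 and *Prkg1* from −0.24 to 0.21. The log2 ratio of *Gucy1a3* to *Gucy1b3* changed direction without WT replicate 2 (0.18) and ranged from −1.09 to 0.18. *Ednrb* ranged from 1.10 to 2.22, with an unadjusted limma p under 0.05 in 11 of 16 settings, and *Nos3* from 0.63 to 1.37, in 9 of 16. Most of these 11 and 9 settings kept all 6 libraries. With libraries left out, *Ednrb* stayed under 0.05 only when KO0, WT1 or WT2 alone was omitted, and *Nos3* only when WT2 was. The number of genes past the adjusted threshold, 1, was 2 without the mean-variance trend, 3 without the 2 libraries high in heart muscle markers (chosen after seeing the data) and 1 to 3 with 1 library left out. The number at an unadjusted p under 0.05, 1073, was 669 without KO replicate 1. With the replicate block 1 gene passed and *Ednrb* kept 1.58 (SE 0.27, limma adjusted p = 0.28). Libraries of the same number did not deviate together (correlations 0.12, −0.08 and −0.01), and 2 of 6 libraries correlated best with their own number. The block changed no call. Where 1 library is left out, the other group and the remaining pair share 1 spread. Depth in reads is unknown, which limits what the low genes can show.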
